A study of Homo sapiens with 3 samples.

Results

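The PEA3 transcription factors ETV1, ETV4 and ETV5 and the feedback inhibitors of the ERK pathway SPRY2, SPRY4, SPRED1, SPRED2, DUSP4, DUSP5 and DUSP6 were followed in FaDu cells exposed to NSC-631570. They were taken as every probe set whose platform annotation names exactly 1 gene, that gene being one of these 10. This gave 32 of the 44994 probe sets that name 1 gene, and 10 of 18132 genes. ETV1 had 8 probe sets, SPRED1 had 5, ETV5 and DUSP6 4 each, SPRY4 and SPRED2 3 each, and ETV4 2. SPRY2, DUSP4 and DUSP5 had 1 probe set each.

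FaDu is an established human cell line, grown from a hypopharyngeal squamous cell carcinoma, and NSC-631570 is an extract of greater celandine (Chelidonium majus). Per the labels, 1 array came from cells kept for 48 h in medium with the extract at 10 µg/ml, which the series' design text calls the EC50 dose, and 2 arrays came from control cells that received distilled water instead. The labels name no genetic change in any culture. The treated condition has no replicate. Whether separate cultures lie behind the 2 untreated arrays is not stated, and the spread that enters each p-value may be technical. The signals are log2 values, so that a difference of 1 is a factor of 2.

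Growth factor receptors activate ERK through RAS, RAF and MEK. Active ERK raises transcription of the PEA3 subfamily of ETS factors, in part by relieving repression by CIC, and it raises transcription of its own inhibitors. Sprouty and SPRED proteins act upstream, at the level of receptors, RAS and RAF. DUSP4, DUSP5 and DUSP6 remove phosphate from ERK itself, DUSP6 in the cytoplasm and DUSP4 and DUSP5 in the nucleus. The transcripts of these genes are therefore widely read as a record of sustained ERK activity, in epithelial tumours among others.

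RefSeq promoter windows on GRCh38.p14 were at hand for 6 of the 10 genes, 14 windows in all, since genes with several start sites have several windows. Each covers 250 bases before and 50 after a start site. They were searched on both strands for the octamers that CIC is known to bind, TGAATGAA, TGAATGGA, TCAATGAA and TCAATGGA. Of the 14 windows 2 held one of these octamers, 1 of DUSP6 and 1 of the 6 windows of ETV1. Over all 35116 promoters of the same length the share was 3.77%. The windows of DUSP6 and ETV1 are printed because they are the ones with an octamer. The motifs and these windows were chosen after the promoter sequences had been looked at, so the count of 2 is a description and supports nothing. Capitals mark the octamers, and only the first 20 bases after the start site are included. Both genes lie on the minus strand, and the windows are written 5′ to 3′ along the transcript, DUSP6 from chr12:89352482-89352751 and ETV1 from chr7:13991406-13991675.
DUSP6: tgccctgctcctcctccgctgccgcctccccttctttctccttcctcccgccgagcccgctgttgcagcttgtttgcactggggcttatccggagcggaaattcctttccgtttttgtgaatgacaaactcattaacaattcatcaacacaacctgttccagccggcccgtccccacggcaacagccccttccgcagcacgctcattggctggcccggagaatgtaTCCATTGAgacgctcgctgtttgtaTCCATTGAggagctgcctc
ETV1: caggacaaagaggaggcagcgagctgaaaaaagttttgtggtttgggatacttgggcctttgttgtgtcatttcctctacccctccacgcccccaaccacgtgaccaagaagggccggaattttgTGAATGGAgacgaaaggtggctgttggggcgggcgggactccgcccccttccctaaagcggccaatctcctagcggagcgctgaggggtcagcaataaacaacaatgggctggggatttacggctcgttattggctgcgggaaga
In the DUSP6 window the reverse complement of TCAATGGA occurs at 2 places, beginning 24 bases before the start site and 1 base after it. In the ETV1 window TGAATGGA begins 125 bases before the start site. The other motifs searched were the ETS core CCGGAA (4 of the 14 windows, 17.2% of all promoters), the PEA3 element AGGAAG (9 of 14, 33.6%) and the AP-1 site TGANTCA (1 of 14, 7.71%). No element overlapped an octamer in either printed window. These matches are descriptions of letters and show no binding.

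The array medians over all probe sets were between 6.55 and 6.62. Genes were tested on their brightest probe set, the one with the highest mean over the 3 arrays, where that mean reached 5.85, the 40th percentile of all probe sets. This left 11932 genes, all 10 members among them, and 22 of the 32 member probe sets. With genes taken this way the treated array lay above the untreated mean in 66.0% of genes, by a median of 0.12, so small positive differences are common. Control probe sets for the 5′ ends of ACTB and GAPDH differed by −1.37 and −0.48 (treated minus untreated mean), while those for the 3′ ends differed by 0.20 and −0.01. Of all probe sets naming 1 gene, 0.445% were at least 2-fold above both untreated arrays and 1.67% at least 2-fold below both. The position of the members' probe sets along their transcripts was not used here, and the part of this 5′ signal in the results was not tested. The keratinocyte marker genes KRT5, KRT14, SFN, ITGA6 and DSG3 gave signals from 9.46 to 13.96 in all 3 arrays. Their summed linear signal, on the brightest probe set of each gene, was 26299 in untreated 1, 28565 in untreated 2 and 31972 in the treated array. They are 5 of 8 listed markers, the others having no probe set that names them alone. KRT5 was below both untreated arrays on both of its probe sets. Other probe sets of KRT5 and DSG3 differed by −2.30 and −0.72, and the 2 others of ITGA6 by −0.63 and 0.54. The summed linear signal of 6 fibroblast markers lay between 219.5 and 244.4, that of 4 endothelial markers between 408.6 and 438.9, and that of 4 leukocyte markers between 151.5 and 266.7. Of the markers of other cell types none exceeded 7.79 on the log2 scale, within the span of the background control probe sets (3.05 to 12.09), so none was called present or absent. The members' brightest probe sets read from 6.42 to 11.46, also within that span, and were not called either. The part of these markers in the results was not tested.

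All 3 PEA3 factors read higher in the treated array than in either control, while the feedback inhibitors were split. On the brightest probe sets ETV5, ETV4 and ETV1 were 2.32-, 2.18- and 2.01-fold above the untreated mean. SPRY4, SPRED2 and SPRED1 were also above both untreated arrays, by smaller folds of 1.64, 1.45 and 1.39. SPRY2 and the 3 DUSP phosphatases lay between the untreated arrays. Thus 6 of 10 genes were above both untreated arrays and none was below both, where 51.7% of all tested genes were above both and 22.5% below both. None of the members was at least 2-fold above both, as 0.88% of tested genes were and 0.235% were below. In the limma fit, with p-values adjusted by Benjamini-Hochberg over all tested genes, 0 of the 10 members were called, against 0.067% of all genes (0.0419% higher and 0.0251% lower). At an unadjusted p under 0.05 limma counted 4 members (ETV1, ETV4, ETV5 and SPRY4), all higher, where 12.2% of all genes were counted as higher and 2.25% as lower. In bulk RNA a change in the share of cells that express a gene and a change of RNA per cell cannot be told apart.

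**Figure D1:**
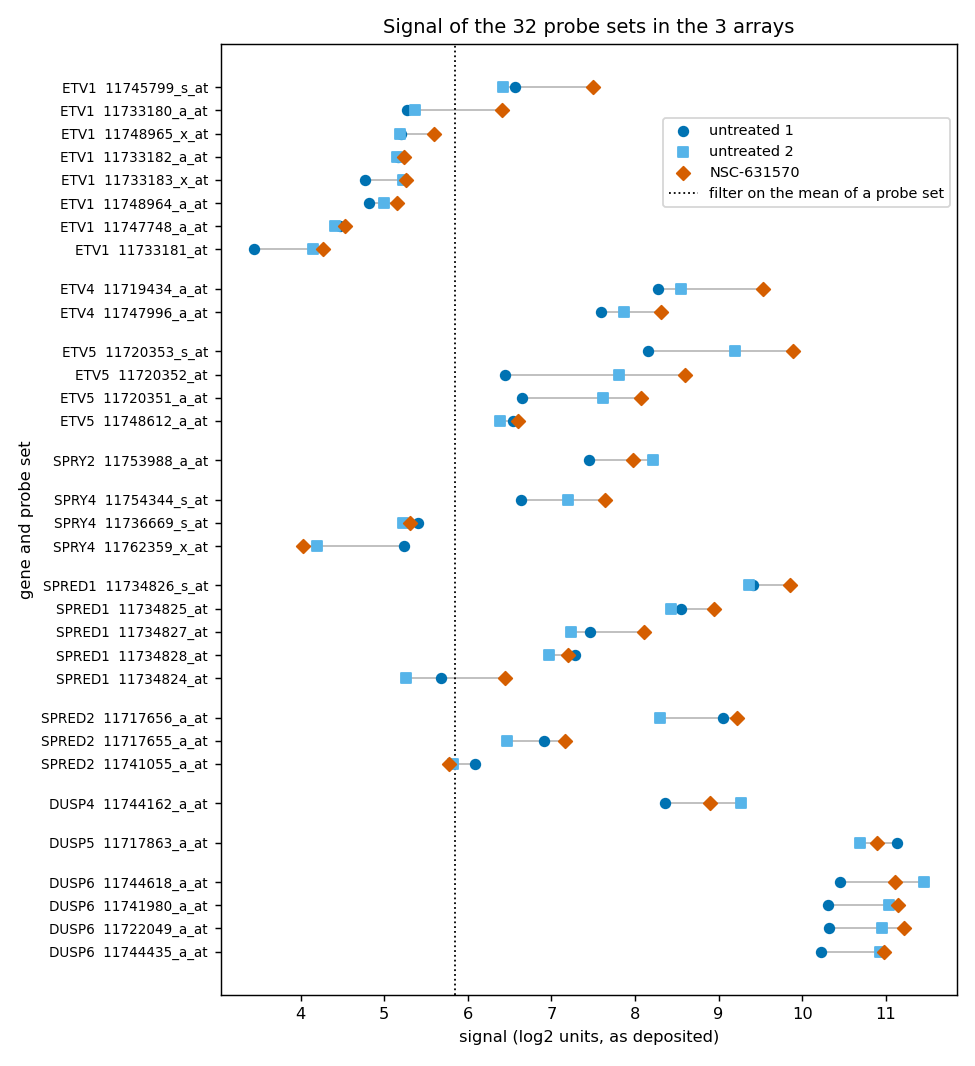
Signal in log2 units (x axis) of each of the 32 probe sets (y axis) in untreated 1 (circles), untreated 2 (squares) and the NSC-631570 array (diamonds), with grey lines joining the lowest and highest value and the filter of 5.85 as a dotted line. The diamond is the rightmost symbol in all 14 probe sets of ETV1, ETV4 and ETV5 on the deposited scale (in 8 of 14 with a common median over the genes tested), and lies among or left of the untreated symbols in 8 of the 18 probe sets of the inhibitors.

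ETV4 encodes the founding member of the PEA3 group, an activator that binds ETS sites. Its brightest probe set read 8.28 in untreated 1, 8.55 in untreated 2 and 9.54 in the treated array. The treated value was the highest, and its distance to the nearer untreated array (0.99) exceeded the gap between the untreated arrays (0.27). The log2 difference was 1.12 ± 0.23 (SE from limma, 1 treated array against 2 untreated), with an adjusted p of 0.118, the smallest among the members. After a shift of each array to the same median of all probe sets the difference was 1.17 and limma's adjusted p = 0.0482, and under the other settings that give a p, probe sets fitted singly included, it ranged from 0.0512 to 0.185. That range leaves out the second probe set fitted singly, whose adjusted p by limma was larger. The second probe set read 7.60, 7.87 and 8.31, a smaller difference of 0.57 in the same direction.

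ETV5, whose product shares the ETS domain and many sites with ETV4, had the largest difference of the members and also a wide gap between controls. Its brightest probe set read 8.16 in untreated 1, 9.20 in untreated 2 and 9.89 in the treated array. The treated array was the highest, but it was nearer to untreated 2 than the untreated arrays were to each other. The log2 difference was 1.21 ± 0.38 (SE from limma, adjusted p = 0.22). Taken from untreated 1 it was 1.73, and from untreated 2 it was 0.69. The 3 other probe sets read 6.44, 7.81 and 8.60, then 6.64, 7.61 and 8.08, then 6.53, 6.39 and 6.59 in untreated 1, untreated 2 and the treated array. The first pair repeated the order of the brightest one, with differences of 1.48 and 0.95, and the last was nearly level at 0.13. Only 1.19% of all tested genes had a gap between the untreated arrays as wide as that of ETV5.

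ETV1, the third PEA3 factor, was read near the filter. Its brightest probe set gave 6.56 in untreated 1, 6.42 in untreated 2 and 7.49 after treatment. The untreated arrays lay close together here, and the treated array stood 0.93 above the higher of them. The log2 difference was 1.0 ± 0.22 (SE from limma, adjusted p = 0.127). This probe set is of the kind with suffix _s_at, which by design can match more than 1 transcript. The brightest probe sets of ETV5, SPRY4 and SPRED1 are of the same kind. The next probe set read 5.27, 5.37 and 6.40, a difference of 1.08, and was the only one of the 32 that was at least 2-fold above both untreated arrays (0.445% of all probe sets). The mean of this probe set fell short of the filter, as did those of 6 others of ETV1, which differed by 0.07 to 0.47. All 8 were above both untreated arrays.

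Over the 3 factors all 14 probe sets were above both untreated arrays on the deposited scale and 8 of 14 with a common median over the genes tested. Of all probe sets naming 1 gene 38.7% were above both on the deposited scale and 17% with that common median. The median difference of the 14 was 0.52. Of the 14, 7 passed the filter. Among all probe sets past the filter 40.7% were above both untreated arrays, 34.5% below both and 2.57% at least 2-fold below both. Probe sets of 1 gene share its transcripts and are not independent of each other. Fitted singly over 27255 probe sets, none of the 22 member probe sets passed the limma threshold, which 0.55% of all probe sets passed as higher and 2.37% as lower. Of the 22, 8 had an unadjusted p under 0.05, all higher, where 8.3% of all probe sets did as higher and 9.56% as lower. The smallest adjusted p was 0.0512, that of ETV4. The common median over the genes tested lowers every difference by 0.20, and 2 of the 14 then lay below both, where 61.1% of all probe sets did. On the brightest probe sets the differences were then 1.02 for ETV5, 0.93 for ETV4 and 0.81 for ETV1, and these 3 genes stayed above both.

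**Figure D2:**
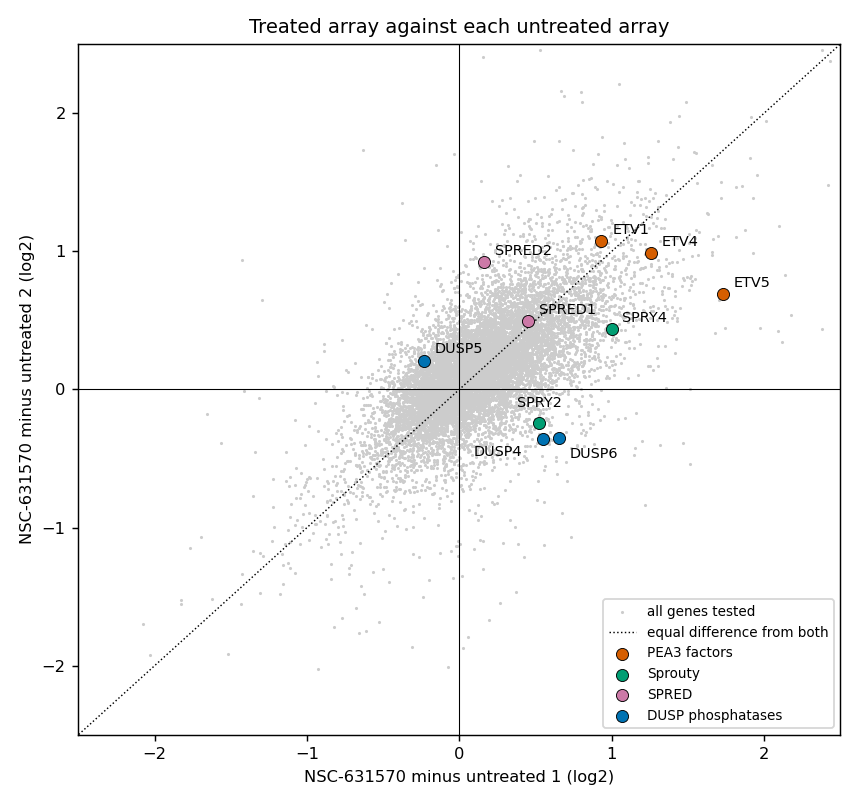
Log2 difference of the NSC-631570 array from untreated 1 (x axis) and from untreated 2 (y axis) for all 11932 tested genes (grey, 5 of them outside the axes) and the 10 members (coloured by family), on the brightest probe set of each gene. ETV1, ETV4 and ETV5 lie to the upper right, away from both untreated arrays, while SPRY2, DUSP4 and DUSP6 lie below the horizontal zero line.

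Sprouty proteins are adaptors that dampen signalling from receptors to RAS. SPRY2 read 7.45 in untreated 1, 8.22 in untreated 2 and 7.97 in the treated array on its only probe set. The treated value lay between the untreated ones, which were 0.77 apart, and the log2 difference was 0.14 ± 0.32 (SE from limma, adjusted p = 0.908). SPRY4 read 6.64, 7.20 and 7.64 on its brightest probe set, with the treated array the highest and untreated 1 the lowest. Its log2 difference was 0.72 ± 0.28 (SE from limma, adjusted p = 0.291). The other probe sets of SPRY4 were dim and did not repeat this order. One read 5.41, 5.22 and 5.30, and the other, of the cross-hybridising _x_at kind, read 5.24, 4.20 and 4.03, the treated array being the lowest there.

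SPRED proteins, relatives of Sprouty, bring the RAS inhibitor neurofibromin to the membrane. SPRED1 read 9.41 in untreated 1, 9.37 in untreated 2 and 9.86 in the treated array. The untreated arrays were 0.04 apart, the closest of any member, and the treated array stood 0.45 above the higher of them. The log2 difference was 0.47 ± 0.21 (SE from limma, adjusted p = 0.369). Of its further probe sets 3 were above both untreated arrays by mean differences of 0.46, 0.77 and 0.97, the last one below the filter, and 1 lay between them (7.28, 6.98 and 7.19). SPRED2 read 9.06 in untreated 1, 8.29 in untreated 2 and 9.22 in the treated array. The treated array was only 0.16 above untreated 1 but 0.92 above untreated 2, giving a log2 difference of 0.54 ± 0.32 (SE from limma, adjusted p = 0.497). Its second probe set kept this order (6.91, 6.47 and 7.16), and its dimmest one had the treated array lowest (6.09, 5.82 and 5.77). With a common median over the genes tested SPRED1 stayed above both untreated arrays and SPRED2 did not.

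DUSP6, the cytoplasmic ERK phosphatase whose promoter is printed above, was bright in all arrays. Its brightest probe set read 10.45 in untreated 1, 11.46 in untreated 2 and 11.11 in the treated array, so the treated value lay between untreated values that were 1.0 apart. The log2 difference was 0.15 ± 0.38 (SE from limma, adjusted p = 0.915). On the 3 other probe sets the treated array was the highest, by 0.05 to 0.26 over untreated 2, and by 0.75 to 0.90 over untreated 1. The 4 probe sets therefore agreed that untreated 1 was the lowest array and differed on whether the treated array exceeded untreated 2. DUSP4, a nuclear phosphatase, read 8.36, 9.26 and 8.90, again with the treated array in between (difference 0.09, adjusted p = 0.951 by limma). DUSP5, also nuclear and specific for ERK, read 11.14 in untreated 1, 10.69 in untreated 2 and 10.90 in the treated array (difference −0.01, adjusted p = 0.992 by limma). Here untreated 1 was the higher control, opposite to DUSP4 and DUSP6.

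Over the 7 inhibitors, 10 of 18 probe sets were above both untreated arrays, 2 below both and 6 between, where 38.7% of all probe sets naming 1 gene were above and 33.3% below. The untreated arrays themselves differed in most of the genes studied. The median gap between them was 0.66 over the 10 genes and 0.18 over all tested genes, and 8 of the 10 genes had a gap wider than the latter. Untreated 2 was the higher control on the brightest probe set of ETV4, ETV5, SPRY2, SPRY4, DUSP4 and DUSP6. Untreated 1 was the higher one on that of ETV1, SPRED1, SPRED2 and DUSP5, in the SPRED genes on all 8 probe sets. Counting all probe sets, untreated 2 was higher on 1 of 3 of SPRY4, 3 of 4 of ETV5 and 4 of 8 of ETV1. For SPRY2, DUSP4 and the brightest probe set of DUSP6 the sign depended on the control: against untreated 1 they differed by 0.52, 0.55 and 0.65, and against untreated 2 by −0.25, −0.36 and −0.35. For DUSP5 the values were −0.23 and 0.21. The 3 other probe sets of DUSP6 were positive against each control, and the mean of its 4 probe sets differed by 0.40, beside 0.15 on the brightest. On their brightest probe sets the 6 other genes were positive against each control. Among their dimmer ones, SPRY4 had 1 at −1.21 and −0.17 against untreated 1 and untreated 2, SPRED2 had 1 at −0.32 and −0.05, and SPRED1 had 1 at −0.09 against untreated 1. The mean of the SPRED2 probe sets differed by 0.28, beside 0.54 on the brightest.

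The other genes of these families did not follow a common direction. The counts of this and each further list stand beside 51.7% of all tested genes above both untreated arrays and 22.5% below both. Of 10 further Sprouty, SPRED and MAPK phosphatase genes, 2 were above both untreated arrays and 4 below both, with a median difference of −0.07, and none passed limma's threshold (1 unadjusted p under 0.05). DUSP9, a cytoplasmic ERK phosphatase, read 7.18, 7.20 and 7.81 (difference 0.63). DUSP2, a nuclear one, read 7.56, 7.23 and 7.82 (difference 0.42). DUSP8, which acts mainly on stress kinases, read 7.73, 7.63 and 7.25 (difference −0.43). DUSP1, an immediate early phosphatase, read 9.76, 11.70 and 9.69. Its treated value was close to untreated 1 and 2.01 below untreated 2, a difference of −1.04, and all 4 of its probe sets were below both controls.

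Genes of the ERK cascade gave differences on both sides of 0. The list also holds regulators that oppose the signal, such as the neurofibromin gene NF1, and kinases that ERK activates. Of all tested genes 51.7% were above both untreated arrays and 22.5% below both. Of 25 listed genes 16 were tested, 9 above both untreated arrays and 5 below both, with a median of 0.08, and none passed limma's threshold (1 unadjusted p under 0.05). The largest differences were those of the RAS exchange factor gene SOS2 (7.91, 7.94 and 8.74, difference 0.81, its other probe set 0.17), the ERK-activated kinase gene RPS6KA1 (0.49), the docking protein gene GAB1 (0.48) and the GTPase gene HRAS (−0.46). The other probe sets of RPS6KA1 were at a median of −0.25, those of GAB1 at 0.30, and that of HRAS at −0.41. The median of the whole cascade turned to −0.20 when each probe set was counted singly.

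Other transcripts that ERK is known to induce were mostly not higher. Over all tested genes the shares above and below both untreated arrays were 51.7% and 22.5%. Of 18 tested, 4 were above both untreated arrays and 6 below both, with a median of −0.17, and none passed limma's threshold (1 higher and 3 lower at an unadjusted p under 0.05). The immediate early factor gene EGR1 read 12.53, 11.91 and 10.84 in untreated 1, untreated 2 and the treated array, and all 6 of its probe sets past the filter were below both untreated arrays. FOS, a subunit of AP-1, read 9.96, 10.86 and 9.14 with 4 of 4 probe sets below both. IER2, another immediate early gene, read 11.06, 11.29 and 10.15. The log2 differences of EGR1, FOS and IER2 were −1.38, −1.27 and −1.02. PLAUR, the urokinase receptor gene, read 8.0, 8.34 and 8.88 and was above both on 5 of 5 probe sets (difference 0.71 on the brightest). Whether the differences of these genes differ from those of the PEA3 factors was not tested. Without untreated replicate 2 the median of this list was 0.13, on the other side of 0.

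**Figure D3:**
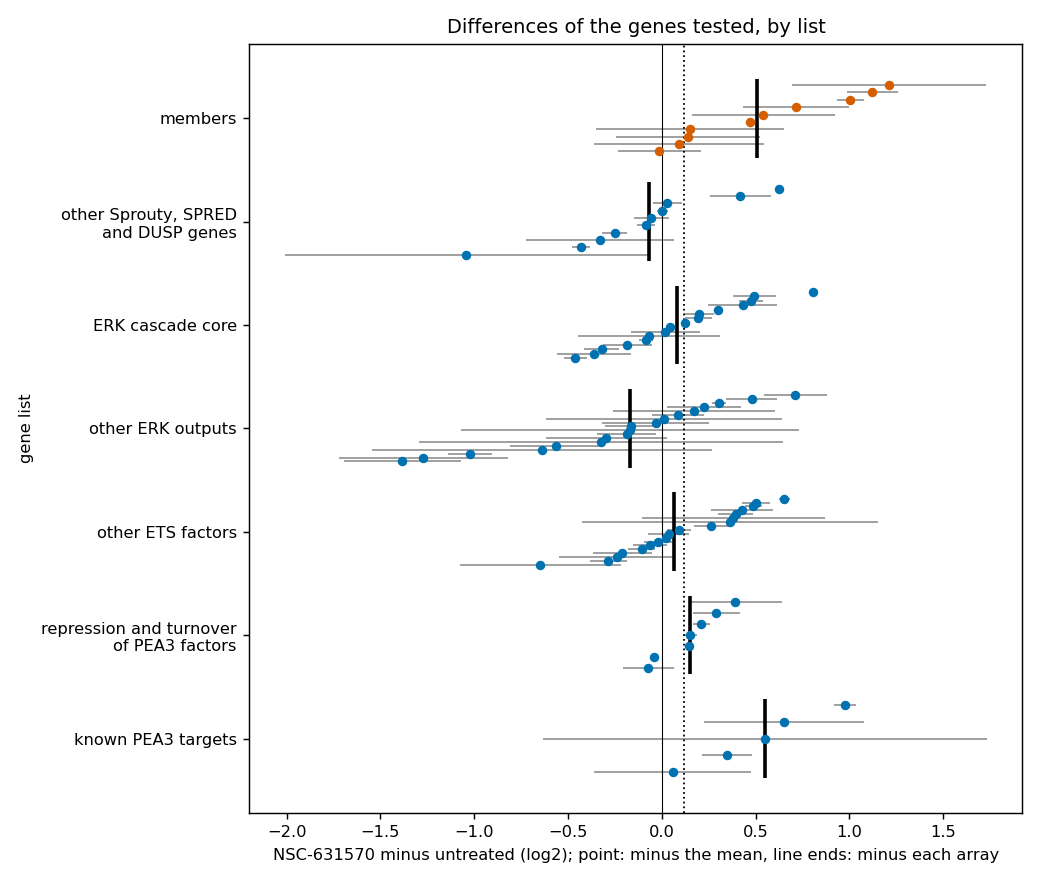
Log2 difference of the NSC-631570 array from the untreated mean (x axis, points) for the tested genes of each list (y axis), with grey lines running from the difference to one untreated array to that of the other, thick bars at the list medians and a dotted line at the median of all tested genes (0.12). The median of the members is 0.51, and that of the other ERK output genes is −0.17.

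Among 18 other tested ETS factors, 8 were above both untreated arrays and 4 below both, at a median of 0.06, and none passed limma's threshold (1 unadjusted p under 0.05). EHF, an ETS factor of epithelia, read 9.92, 9.98 and 10.60 (difference 0.65), although its 6 other probe sets past the filter had a median of −0.53. ELF3, also epithelial, read 11.38, 10.52 and 10.31 (difference −0.65), and ELK3 and the repressor ERF differed by 0.50 and 0.49. ELF3 was lower on all 3 of its probe sets and ELK3 higher on both of its own, while the 2 other probe sets of ERF had a median of −0.26. The median of all 10 members was 0.51 beside 0.12 over all tested genes, of which 51.7% were above both untreated arrays and 22.5% below both.

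The genes that restrain PEA3 factors differed by at most 0.39 on their brightest probe sets, while some of their other probe sets differed by more. CIC, the repressor whose octamers are shown above, read 7.88, 7.79 and 8.05 (difference 0.21 ± 0.22, SE from limma, adjusted p = 0.745). Its partner gene ATXN1L differed by 0.39. DET1 and CUL4A, components of the ubiquitin ligase machinery that removes PEA3 proteins together with COP1, differed by 0.29 and 0.15, although the 2 other probe sets of CUL4A had a median of −0.41. DDB1, the adaptor gene of the same ligase, read 10.85, 11.12 and 10.92 on its brightest probe set (difference −0.07), but its 2 other probe sets past the filter were below both untreated arrays, at −0.66 and −3.43. Of 7 tested genes in this list 5 were above both untreated arrays and 1 below both, with a median of 0.15, and none passed limma's threshold (0 unadjusted p under 0.05). On the deposited scale 51.7% of all tested genes were above both untreated arrays and 22.5% below both. Centred on the genes tested, the list stood at −0.045.

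Of 7 genes known as PEA3 targets 5 were tested, 3 were above both untreated arrays, none was below both, and none passed limma's threshold (1 unadjusted p under 0.05). The collagenase gene MMP1 read 10.26, 10.14 and 11.17, and its treated value stood 0.92 above the higher control, with a second probe set at 0.83. PTGS2, the inducible cyclooxygenase gene, read 8.97, 9.82 and 10.05. The membrane metalloproteinase gene MMP14 read 10.68, 10.94 and 11.16. MMP7, the matrilysin gene, read 7.61, 5.24 and 6.98 and was not ordered by treatment. PLAU, the urokinase gene, read 12.12, 12.95 and 12.59 on the brightest of its probe sets, while the 2 remaining ones were below both controls, at −1.15 and −2.14. The median difference of this list was 0.55, but 0.23 without untreated replicate 1 and 0.19 with the mean of each gene's probe sets. Its counts above and below both untreated arrays stand beside 51.7% and 22.5% of all tested genes.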

How the data were processed

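Total RNA of FaDu cells was hybridised to 3 Affymetrix PrimeView arrays after amplification and biotin labelling. The deposited file holds a log2 signal for each probe set on each array, which the authors obtained from Affymetrix Expression Console, per the submitters' processing notes. Its summarisation, normalization and version were not given in the sources used here. Their scale was inferred from their range. No detection call was made, and precision is limited by there being 3 arrays. Of 49395 probe sets 44994 named 1 gene, 1832 several (not used) and 2473 none here.

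The comparison of treated with untreated used limma 3.58.1 in R 4.3.3 over 11932 genes, with Benjamini-Hochberg adjustment at 0.05. The residual has 1 degree of freedom, moderated by 6.95 prior degrees of freedom, and the lone treated array is taken to have the spread of the untreated pair. The fit was also run on simulated data. Such data cannot show whether the real treated array has the spread of the untreated pair, so no conclusion is drawn from them. Named genes were all members and up to 4 tested genes per list with the largest difference. DDB1 and PLAU, whose other probe sets were below both controls, were named beyond this rule. The members and lists were chosen with earlier results of these data known, and the searched motifs after the promoters had been read. The alternatives were other normalisations, centrings, filters and probe set rules, and leaving out each untreated array.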

Additional observations from a re-analysis of the deposited data

How the results depend on the processing

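With 1 treated array and 2 untreated arrays, the spread between arrays rests on the untreated pair. No paired analysis was possible because the groups share only 1 replicate number, given in accession order. Without either untreated array no residual is left, so those settings give values with no limma test and no count of genes past the threshold.

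Genes past the threshold numbered 8, but 4 after quantile normalisation, 136 with a common median over all probe sets, 50 with a common median over the genes tested, 4 with no filter, 21 with the filter at the 60th percentile, 3 when probe sets were averaged per gene, 795 with probe sets singly and 844 by the 1.5-fold rule. With the brightest probe set outside the _s_at and _x_at kinds, chosen after seeing the data, they numbered 121. Of the members, 1 passed with a common median over all probe sets (ETV4) and 0 under each other setting with a test. Of 84 alternative values for single members, 8 changed sign, 1 passed the threshold and 75 did neither. The values without an untreated replicate have no test, so for them only the sign could change. With a common median over the genes tested, SPRY2 was at −0.058, DUSP4 at −0.10 and DUSP6 at −0.045. With a common median over all probe sets DUSP5 was at 0.030. Leaving out one untreated replicate gave SPRY2 from −0.25 to 0.52, DUSP4 from −0.36 to 0.55, DUSP5 from −0.23 to 0.21 and DUSP6 from −0.35 to 0.65.

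Member genes above both untreated arrays numbered 6 and stayed between 4 and 7 except without untreated replicate 2 (9) and at 2-fold (0). Member genes below were 0, and 1 to 3 when an untreated replicate was left out. Of all tested genes 51.7% were above both and 22.5% below both on the deposited scale. Of 32 member probe sets, 24 above became 15 with a common median over the genes tested, 12 of 16 under the 60th percentile filter and 1 at 2-fold, and 27 without either untreated replicate. The 2 below became 5, 0 and 0 under these settings, 5 without either untreated replicate, and 1 under the 40th percentile filter (added after seeing the data). List medians were judged against the median SD of their genes between the untreated arrays. This yardstick replaced the SD of the list median itself after the outcome was seen, since the first had marked very many alternatives as moved, so fewer are listed here than under the first choice. Whatever the yardstick, the median of other ERK outputs changed sign without untreated replicate 2 (0.13), and that of other ETS factors without untreated replicate 1 (−0.032), with averaged probe sets (−0.037) and with probe sets singly (−0.055). With a common median over the genes tested, the medians were −0.27 for the other family members, −0.11 for the cascade, −0.13 for other ETS factors and −0.045 for the machinery restraining PEA3 factors. With the filter at the 60th percentile they were −0.25 for the other family members and 0.20 for other ETS factors. The cascade was at −0.10 with the mean of probe sets, −0.13 outside the _s_at and _x_at kinds and −0.20 with probe sets singly, where the restraining machinery was at −0.039. The cause of these changes was not tested.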
